A study of Mus musculus with 6 samples.

Results

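Transcript levels of 46 genes of autophagy and of its upstream kinase, mechanistic target of rapamycin complex 1 (mTORC1), were compared in mouse mast cells of 2 origins: lymph nodes free of tumour, called uninvolved (uLN, 3 libraries), and lymph nodes that held metastases (mLN, 3 libraries). The genes were taken by symbol from a table of 17890 genes, and all 46 were found there and passed the expression filter. The sources used here do not give the mouse strain, age or genotype, the tumour, or how the mast cells were isolated. Nothing in the labels says that the libraries of a group came from separate animals, so the p-values rest on library-to-library spread alone, and that spread may be technical.

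Autophagy encloses cytoplasm in a double membrane, the autophagosome, and delivers it to the lysosome. The ULK kinase complex starts the process, a class III phosphatidylinositol 3-kinase marks the membrane, ATG2 and ATG9 supply lipid, and ubiquitin-like conjugation attaches LC3 and GABARAP proteins to the growing membrane, where cargo receptors dock. The kinase complex mTORC1 blocks the ULK complex when amino acids and growth factors are plentiful, while the TSC complex, AMPK and amino acid sensors restrain mTORC1. In mast cells, the conjugation of LC3 has been linked to the release of secretory granules.

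The libraries held 17643916 to 17799420 estimated reads, and 45 of the 46 genes had at least 100 reads in every library. The exception was Atg10, which had 45.3 to 74.1 reads. Levels are given as CPM, counts scaled to a common library size with TMM normalisation. The genes had a median mean level of 74.7 CPM against 27.8 CPM over all 12706 genes tested. The libraries in mLN were less alike than those in uLN, with a median coefficient of variation over the 46 genes of 6.84% against 2.93%. Over mLN replicates 1 and 2 alone the value was 2.67%, so mLN replicate 3 stood apart. This was not particular to these genes, as the values over all genes tested were 7.77% in mLN and 4.65% in uLN. Over mLN replicates 1 and 2 the value for all genes tested was 3.78%. A chi-square test of reads between pairs of libraries was taken over genes of the whole table with enough reads. It gave a median per gene of 0.736 between mLN replicates 1 and 2, but 2.58 and 2.48 for each against mLN replicate 3.

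The genes moved in both directions by small amounts. In mLN 16 of the 46 genes were higher, 21 were lower and 9 were not called at an adjusted p under 0.05 (quasi-likelihood test of edgeR, p-values adjusted by Benjamini-Hochberg over all genes tested). This made 80.4% called, where 67.4% of all genes tested were called (33.2% higher and 34.2% lower), so the count is read against a high background. The median log2 fold change of the 46 genes was -0.11, against -0.01 over all genes tested. A fold of at least 1.5 was reached by 5 genes that rose and 7 that fell, or 26.1% of the 46 genes, against 32.5% of all genes. Only Castor1 and Atg4a passed a 2-fold change, both upward, or 4.35% of the 46 genes against 15.9% of all genes tested. The 2 groups did not overlap for 38 of the 46 genes (82.6%), and for 72.9% of all genes tested. In whole-cell RNA of isolated cells, fewer cells carrying a transcript and less of it per cell cannot be told apart. Without mLN replicate 3 the counts were 16 higher and 24 lower, where 34.2% and 34.9% of all genes tested were. Without mLN replicate 1 they were 17 higher and 17 lower, where 31.3% and 32.4% of all genes tested were.

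**Figure D1:**
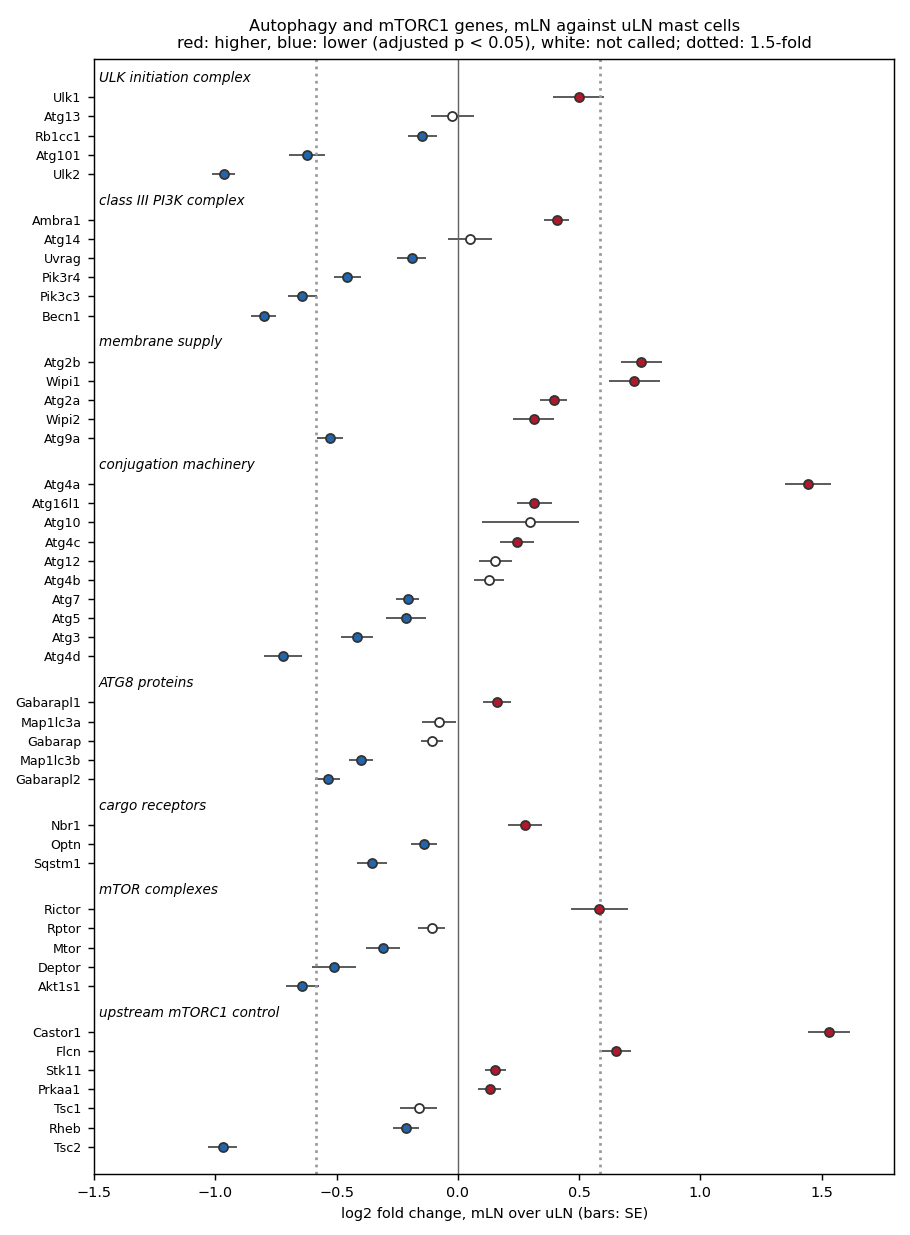
Log2 fold change of each of the 46 genes in mLN over uLN mast cells (horizontal axis), grouped by role, with bars of 1 standard error and dotted lines at 1.5-fold. Red and blue points are genes called higher (16) and lower (21), white points the 9 not called, and Castor1 and Atg4a lie farthest to the right.

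The ULK complex split between its paired kinases. Ulk1 and Ulk2 encode the kinases that start autophagy and that mTORC1 inhibits. Ulk1 had 154, 145 and 142 CPM in uLN replicates 1, 2 and 3 and 185, 185 and 251 CPM in mLN. Ulk2 had 148, 146 and 149.7 CPM in uLN and 75.1, 78.6 and 73.1 CPM in mLN. All mLN libraries were above uLN for Ulk1 and below it for Ulk2, and the level of Ulk1 in mLN replicate 3 stood apart from the other mLN libraries. The log2 change of Ulk1 was 0.50 ± 0.10 (SE) with an adjusted p of 0.00166 in edgeR, and that of Ulk2 was -0.97 ± 0.05 (SE) with an adjusted p of 5.98e-08. Without mLN replicate 3 the log2 change of Ulk1 was 0.34, and it was still called. Atg101, which stabilises ATG13 in the complex, fell 1.54-fold from 18.4, 19.2 and 18.04 CPM in uLN to 12, 11.9 and 12.3 CPM in mLN, with no overlap. Rb1cc1, the scaffold FIP200, was called lower by 0.15 on the log2 scale although its groups overlapped, and leaving out uLN replicate 1, uLN replicate 3, mLN replicate 1 or mLN replicate 2 ended the call (adjusted p from 0.0982 to 0.143 in edgeR). Atg13, the subunit that links kinase and scaffold, was not called (log2 change of -0.02), but was called lower without mLN replicate 3 (log2 change of -0.15, adjusted p = 0.00622 in edgeR).

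The core of the class III phosphatidylinositol 3-kinase fell. Becn1 encodes Beclin 1, the regulatory core of the kinase, and Pik3c3 encodes its catalytic subunit VPS34. Becn1 had 115, 117 and 118 CPM in uLN and 70.7, 66.9 and 63.6 CPM in mLN. Pik3c3 had 71.8, 66.0 and 71.2 CPM in uLN and 45.9, 46.1 and 42.0 CPM in mLN. The groups did not overlap for either gene, and the falls were 1.74-fold (adjusted p = 3.79e-07) and 1.56-fold (adjusted p = 5.13e-06 in edgeR). Pik3r4, the VPS15 subunit that anchors the kinase, fell 1.37-fold from 81.8 ± 2.70 to 59.6 ± 3.48 CPM (SD, n = 3). The subunits that send the kinase to different membranes moved less. Atg14, which directs it to forming autophagosomes, was not called (log2 change of 0.05). Uvrag, which directs it to endosomes, was called lower by 0.19 on the log2 scale, a call that ended on leaving out uLN replicate 1, uLN replicate 3, mLN replicate 1 or mLN replicate 2 (adjusted p from 0.0511 to 0.0615 in edgeR). Ambra1, a Beclin 1 partner that also steers ubiquitin ligases, had the highest mean level of these genes over the 6 libraries, although Becn1 was higher in uLN, and it moved the other way. It had 97.2, 93.3 and 97.3 CPM in uLN and 126, 121 and 135 CPM in mLN, a 1.33-fold rise with no overlap (adjusted p = 5.21e-05 in edgeR).

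Of the 5 genes for membrane supply, 4 rose and 1 fell. Atg2a and Atg2b encode the bridge proteins that carry lipid from the endoplasmic reticulum into the growing membrane. Atg2b had 65.8, 60.4 and 66.4 CPM in uLN and 104, 97.6 and 124 CPM in mLN, a 1.69-fold rise. Atg2a had 117, 113 and 111 CPM in uLN and 148, 139.9 and 160.1 CPM in mLN, a 1.32-fold rise. Neither gene's groups overlapped, and adjusted p was 1.87e-05 for Atg2b and 0.000112 for Atg2a in edgeR. Wipi1 and Wipi2, which read the kinase's lipid mark, rose 1.66-fold and 1.24-fold. Wipi1 had 24.8, 24.9 and 22.8 CPM in uLN and 36.9, 35.7 and 47.5 CPM in mLN, so that mLN replicate 3 was the highest there too, and its log2 change was 0.73 with that library and 0.59 without it. Atg9a, the scramblase carried on vesicles, was the member that fell, from 137 ± 1.2 to 95.1 ± 6.09 CPM (SD, n = 3), or 1.44-fold.

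In the conjugation machinery the largest rise and the largest fall were those of the ATG4 proteases Atg4a and Atg4d. These proteases trim LC3 and GABARAP before conjugation and release them afterwards. Atg4a (gene ID 666468, chromosome X, 140953845 to 141164194 in GRCm38.p6) had 21.1, 19.8 and 20.2 CPM in uLN and 51.6, 50.9 and 64.0 CPM in mLN. Every mLN library was more than 2-fold above every uLN library, and the rise was 2.72-fold (log2 change of 1.44 ± 0.09, SE, adjusted p = 4.04e-07 in edgeR). Atg4d had 25.1, 24.3 and 27.2 CPM in uLN and 16.4, 15.3 and 14.6 CPM in mLN, a 1.65-fold fall with no overlap (adjusted p = 1.49e-05 in edgeR). Atg4c rose 1.18-fold. Atg4b was not called (log2 change of 0.13), and was called without uLN replicate 3 (adjusted p = 0.0363 in edgeR). Because Atg4a was 1 of the 2 genes that more than doubled, the sequence upstream of its outer start site is shown, up to the first annotated exon (GRCm38.p6 chrX:140953595-140953799, plus strand, RefSeq, holding no whole match to the searched motifs).
Atg4a: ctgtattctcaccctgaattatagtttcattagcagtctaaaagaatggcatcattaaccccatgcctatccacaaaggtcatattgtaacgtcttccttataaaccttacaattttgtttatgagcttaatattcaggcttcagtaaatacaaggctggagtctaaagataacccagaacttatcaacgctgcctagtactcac

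Of the other 6 conjugation genes, 3 were called lower (Atg7, Atg3 and Atg5), 1 higher (Atg16l1) and 2 not called (Atg10 and Atg12). Atg7, the E1-like enzyme shared by both chains, had 123, 124 and 125 CPM in uLN and 105, 113 and 104 CPM in mLN. This small difference of 1.15-fold was larger than the spread between libraries, with no overlap (adjusted p = 0.00299 in edgeR). Atg3, the E2-like enzyme of the LC3 chain, fell 1.33-fold from 41.4 ± 1.64 to 31.0 ± 1.96 CPM (SD, n = 3). Atg5, a partner of ATG12 in the E3-like complex, was called lower by 0.21 on the log2 scale. Leaving out uLN replicate 1, uLN replicate 3, mLN replicate 1 or mLN replicate 3 ended that call (adjusted p from 0.0692 to 0.147 in edgeR). Atg16l1, which brings this complex to the membrane, rose 1.24-fold. Atg12 and Atg10, the E2-like enzyme of the ATG12 chain, missed the threshold, with log2 changes of 0.15 for Atg12 and 0.30 for Atg10, and Atg12 was called higher without mLN replicate 1 (adjusted p = 0.0420 in edgeR). Atg3 is shown because it was the 1 gene of the 39 with a promoter window (2.56%) that held the CLEAR core TCACGTGA, found in 1.41% of the windows of tested genes, the motif bound by TFEB and its relatives (GRCm38.p6 chr16:45158707-45158784, plus strand, RefSeq). Capitals mark the E-box CACGTG on the left and the CLEAR core on the right.
Atg3: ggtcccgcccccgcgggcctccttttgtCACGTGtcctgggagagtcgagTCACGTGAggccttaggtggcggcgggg

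Of the ATG8 proteins, which coat the autophagosome, 1 rose, 2 fell and 2 were not called. Gabarap was the most abundant, with 441, 445 and 443 CPM in uLN and 402, 397 and 435 CPM in mLN. Its groups did not overlap, but the difference of 1.08-fold missed the threshold (adjusted p = 0.0594 in edgeR), and it passed without mLN replicate 3 (adjusted p = 0.000645). Gabarapl2 fell 1.45-fold from 65.0 ± 1.48 to 44.8 ± 1.77 CPM (SD, n = 3). Map1lc3b, the LC3 protein most used as a marker of autophagosomes, fell 1.32-fold from 206 ± 4.53 to 156 ± 7.52 CPM (SD, n = 3). Gabarapl1 was called higher by 0.16 on the log2 scale, a call lost without each of the 3 uLN libraries in turn (adjusted p from 0.0731 to 0.0930 in edgeR). Map1lc3a was not called (log2 change of -0.08).

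Sqstm1 encodes p62, which ties ubiquitinated cargo to LC3 and which NRF2 induces. It was the most abundant of the 46 genes, with 2128, 2181 and 2191 CPM in uLN and 1611, 1588 and 1884 CPM in mLN. The groups did not overlap, mLN replicate 3 lay nearest to uLN, and the fall was 1.28-fold (adjusted p = 0.00047 in edgeR). Nbr1, a receptor of similar build, rose 1.21-fold. Optn, a receptor for mitochondria and bacteria, was called lower by 0.14 on the log2 scale, a call lost without each uLN library and without mLN replicate 1 (adjusted p from 0.0510 to 0.108 in edgeR).

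**Figure D2:**
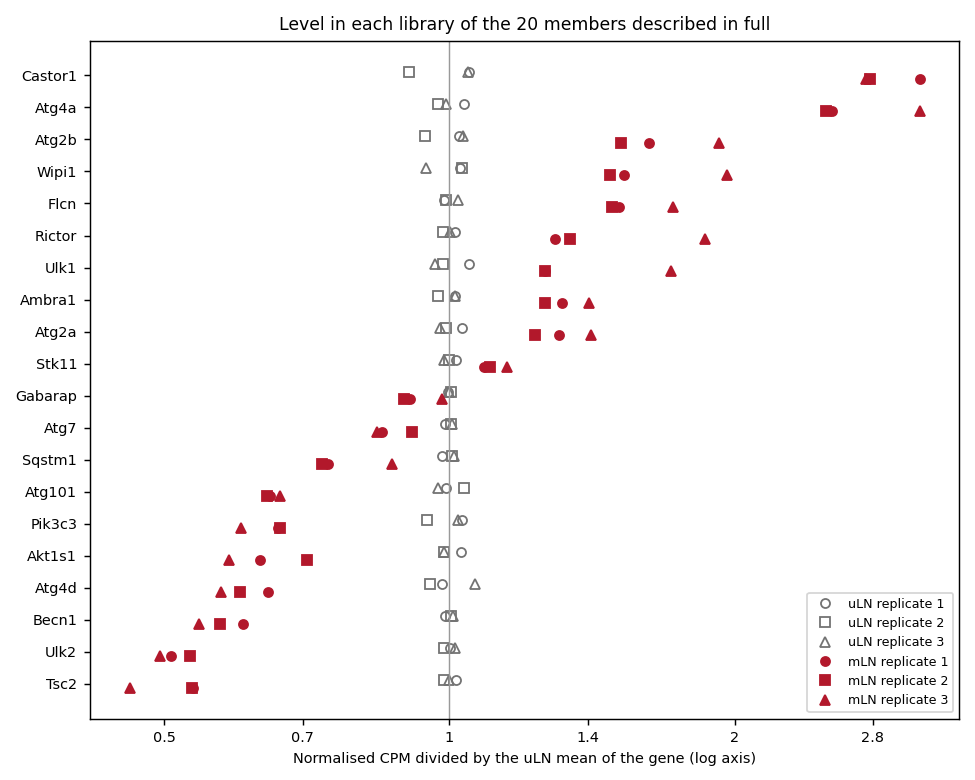
Level in each library of the 20 genes given in full, divided by the mean of the gene in uLN (log axis). Open grey symbols are uLN and filled red symbols mLN, with replicates 1, 2 and 3 as circle, square and triangle. The mLN triangles of Ulk1, Rictor and Wipi1 lie to the right of the other mLN libraries.

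Among the mTOR complex genes 3 fell, 1 rose and 1 was not called. Mtor, the kinase of both complexes, fell 1.24-fold from 81.8 ± 3.62 to 66.0 ± 6.05 CPM (SD, n = 3). Akt1s1 encodes PRAS40, an inhibitory subunit of mTORC1 that AKT releases. It had 78.5, 75.3 and 75.4 CPM in uLN and 48.2, 54.0 and 44.7 CPM in mLN, a 1.56-fold fall with no overlap (adjusted p = 1.36e-05 in edgeR). Deptor, an inhibitor found in both complexes, fell 1.43-fold from 34.9 ± 0.663 to 24.4 ± 3.26 CPM (SD, n = 3). The genes that define the 2 complexes differed. Rptor, which encodes the substrate-binding subunit of mTORC1, was not called (log2 change of -0.11), although it was called lower without mLN replicate 3 (adjusted p = 0.0214 in edgeR). Rictor, the defining subunit of mTORC2, had 89.0, 86.4 and 87.9 CPM in uLN and 113, 118 and 163 CPM in mLN. All mLN libraries were above uLN, with mLN replicate 3 highest, and the log2 change was 0.58 ± 0.12 (SE, adjusted p = 0.0012 in edgeR) with all libraries and 0.40 without mLN replicate 3.

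Upstream of mTORC1, the arginine sensor rose and the GTPase-activating subunit for RHEB fell. Castor1 (gene ID 71962, chromosome 11, 4218166 to 4222409 in GRCm38.p6) encodes a cytosolic arginine sensor that holds back mTORC1 when arginine is scarce. It had 12.2, 10.6 and 12.2 CPM in uLN and 36.5, 32.4 and 32.1 CPM in mLN. The groups were well apart, and the 2.89-fold rise (log2 change of 1.53 ± 0.09, SE, adjusted p = 1.65e-07 in edgeR) was the largest of the 46 genes with all libraries, but without mLN replicate 1 the log2 change was 1.47 for Castor1 and 1.495 for Atg4a. Tsc2 (gene ID 22084, chromosome 17, 24595816 to 24632676) encodes tuberin, which switches off RHEB. It had 168, 164 and 166 CPM in uLN and 88.9, 88.8 and 76.2 CPM in mLN, a 1.96-fold fall with no overlap (adjusted p = 3.61e-07 in edgeR). The falls of Tsc2 and Ulk2 (log2 change of -0.97 for both) were the largest of the 46, and their order changed without mLN replicate 3 (-0.90 for Tsc2 and -0.94 for Ulk2). The upstream sequence of Castor1 is shown as that of the other gene that more than doubled (GRCm38.p6 chr11:4217975-4218165, plus strand, RefSeq), and capitals mark its 1 match to ACGTG, the core of the hypoxia response element, on the reverse strand.
Castor1: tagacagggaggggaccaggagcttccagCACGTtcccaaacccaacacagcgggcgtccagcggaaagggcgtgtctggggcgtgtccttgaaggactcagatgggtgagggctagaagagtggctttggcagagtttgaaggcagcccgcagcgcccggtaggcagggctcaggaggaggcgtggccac

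The other upstream genes moved less. Tsc1, the partner that stabilises tuberin, was not called (log2 change of -0.16), and was called lower without mLN replicate 3 (log2 change of -0.26, adjusted p = 0.000227 in edgeR). Rheb, the GTPase that activates mTORC1, fell 1.16-fold. Flcn encodes folliculin, which acts on the Rag GTPases to let mTORC1 phosphorylate TFEB and TFE3. It had 127, 128 and 132 CPM in uLN and 195, 191 and 222 CPM in mLN, a 1.57-fold rise with no overlap (adjusted p = 4.87e-06 in edgeR). Stk11 encodes LKB1, the kinase that activates AMPK, and was the most abundant of the upstream genes. It had 220.2, 217 and 214 CPM in uLN and 236, 239 and 249.5 CPM in mLN, a 1.11-fold rise with no overlap (adjusted p = 0.0080 in edgeR). Prkaa1, a catalytic subunit of AMPK, was called higher by 0.13 on the log2 scale, a call lost without uLN replicate 1 or uLN replicate 2 (adjusted p = 0.0707 and 0.111 in edgeR).

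The balance within families of related genes was described on levels per length (CPM per kilobase of exon), where each gene's share is taken within its family. Ulk1 held 52.1% ± 1.2 of the ULK pair in uLN and 74.7% ± 3.76 in mLN (SD, n = 3), so the near-equal balance of uLN was tilted to Ulk1 in mLN. Among the proteases, Atg4b held the largest share in uLN at 39.3% ± 1.6, with Atg4a at 27.7% ± 0.906, whereas Atg4a held 50.1% ± 3.18 and Atg4b 28.7% ± 1.67 in mLN (SD, n = 3). The share of Atg4d went from 12.8% ± 0.402 to 5.21% ± 0.632 (SD, n = 3). The ATG8 family changed less, as Gabarap held 57.7% ± 0.184 in uLN and 56.6% ± 0.401 in mLN, followed by Gabarapl1 at 24.1% ± 0.351 and 28.4% ± 0.968 (SD, n = 3). Atg2b held 32.3% ± 1.21 of the ATG2 pair in uLN and 37.9% ± 1.35 in mLN, and Wipi1 held 28.3% ± 1.26 and 34.5% ± 0.553 of the WIPI pair (SD, n = 3). These shares were not tested, and the order of genes within a family rests on the exon lengths used. By CPM without length, Atg4d (25.5) stood above Atg4a (20.4) in uLN.

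**Figure D3:**
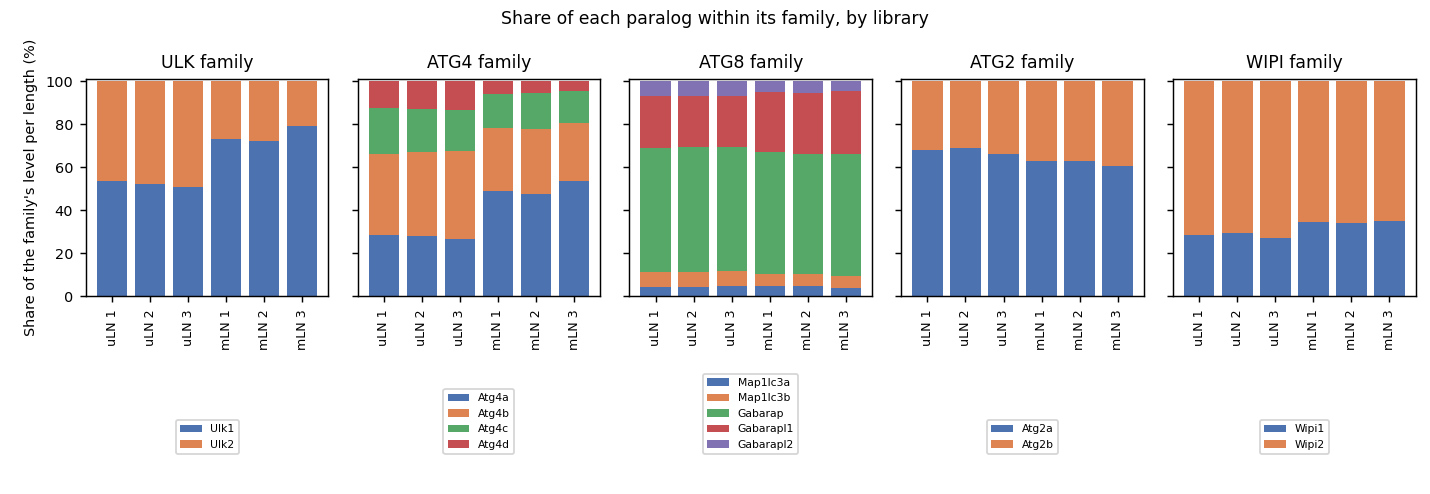
Share of each related gene in its family's summed level per length (percent, vertical axis) in each of the 6 libraries, for the ULK, ATG4, ATG8, ATG2 and WIPI families. Ulk1 and Atg4a take larger shares in all 3 mLN libraries than in any uLN library, while Gabarap stays above 56% of the ATG8 family in every library.

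A further 83 genes of the pathway were read the same way, of which 79 were tested. In mLN 28 of them were higher and 25 lower, or 67.1% called, close to the 67.4% of all genes. The largest rise was that of Prkab2, a regulatory beta subunit of AMPK, 2.74-fold from 13.0 ± 0.276 to 35.5 ± 4.78 CPM (SD, n = 3). The related Prkab1 fell from 297 ± 3.41 to 201 ± 3.255 CPM (SD, n = 3) and was chosen after its values were seen. The AMPK gamma subunit Prkag1 fell 1.79-fold from 90.7 ± 1.56 CPM in uLN, and 44.2% of its exon length is shared with an antisense gene. Amino acid sensing genes also split. Castor2, the relative of Castor1, fell 2.06-fold from 56.7 ± 2.60 to 27.6 ± 2.40 CPM (SD, n = 3), the opposite direction to Castor1. The KICSTOR subunit Kptn fell 1.79-fold, while Sesn1, a stress-induced inhibitor of mTORC1, rose 1.45-fold. The Rag GTPases Rragd and Rragb rose 2.46-fold and 1.56-fold from 4.13 ± 0.310 and 9.60 ± 1.29 CPM in uLN (SD, n = 3). Their more abundant relatives Rragc and Rraga, at 232 and 56.0 CPM in uLN, were not called.

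Folliculin's partner Fnip2 rose 1.45-fold from 61.0 ± 2.798 to 88.2 ± 8.79 CPM (SD, n = 3), alongside the rise of Flcn. Mapkap1, which encodes the mTORC2 subunit SIN1, fell 1.68-fold, against the rise of Rictor. At the lysosome end, Vamp8, a SNARE for autophagosome fusion that also serves granule release, fell 2.62-fold from 103 ± 2.29 to 39.5 ± 1.99 CPM (SD, n = 3). Tecpr1, a tether of autophagosomes to lysosomes, rose 1.83-fold from 289 ± 4.42 to 529 ± 45.5 CPM (SD, n = 3). Wdfy3, an adaptor for aggregated cargo, fell 1.57-fold. Of the 5 tested transcription factors of autophagy and lysosome genes, Tfe3, Foxo1 and Foxo3 rose by 0.38, 0.50 and 0.24 on the log2 scale, and Mitf, also a mast cell lineage factor, fell by 0.58. Tfeb was called higher by 0.36, with groups that overlapped and a call that ended on leaving out any library other than mLN replicate 3 (adjusted p from 0.0546 to 0.118 in edgeR).

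**Figure D4:**
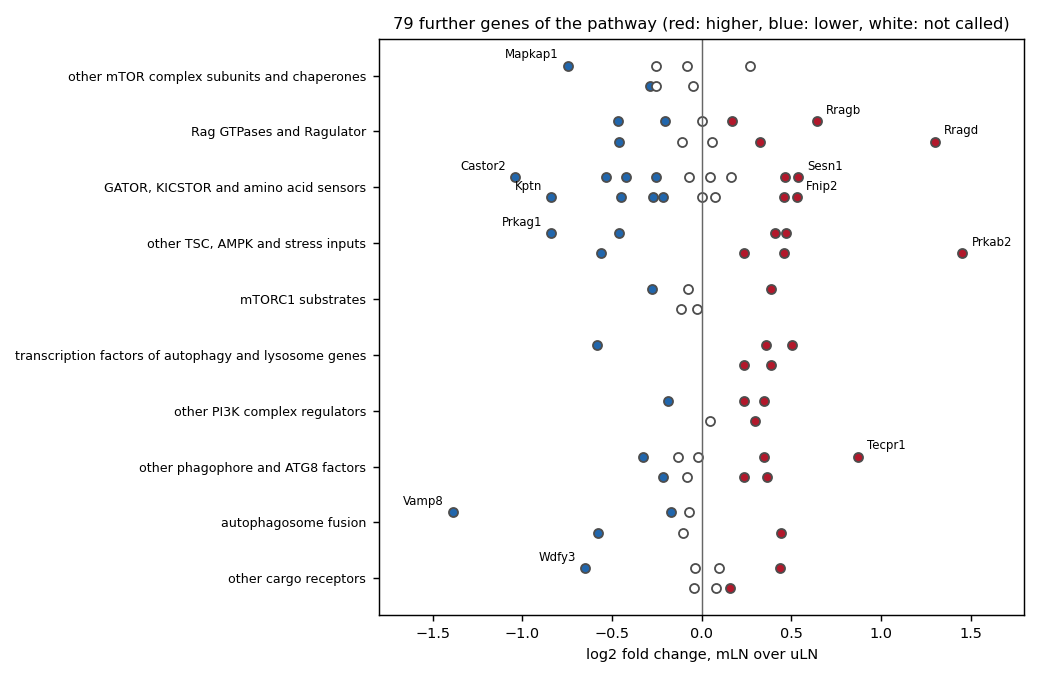
Log2 fold change in mLN over uLN (horizontal axis) of the 79 tested further genes of the pathway, 1 row per group of genes. Red points were called higher (28), blue points lower (25) and white points not called, and the 6 largest rises and 6 largest falls are labelled.

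Promoter sequence was searched on both strands in the 250 bases upstream of annotated starts, some of which lie inside the gene's span. The search covered the 39 genes with a window in the RefSeq table (GRCm38.p6). These genes had 42 windows, and a gene was counted once if any of its windows held the motif. The shares of tested genes count single windows, so the 2 kinds of share are not in the same unit. The E-box CACGTG was in 4 of the 39 genes (Atg3, Atg5, Atg7 and Rheb), or 10.3%, where 8.07% of the windows of all tested genes held it. The Atg7 match lay inside the gene, in a window from 114670846 to 114671145, where the gene's span starts at 114643127. The Atg5 match also lay inside that gene's span, near its start. All 4 genes with the E-box were called lower, where 34.2% of all genes tested and 45.7% of the 46 genes were. Atg7, Rheb and Atg5 fell 1.15-fold, 1.16-fold and 1.16-fold and lost their calls in a test against a 1.2-fold change. Atg3 fell 1.33-fold and kept its call there. The call of Atg5 was also lost in the settings given above, under other scalings and under DESeq2. ACGTG, which the E-box contains, was found in 16 of 39 genes or 41.0%, against 21.3% of windows of tested genes. Of these 16 genes 9 were called lower, 5 higher and 2 not called, where 34.2% of all genes tested were lower and 33.2% higher. Of the 46 genes 21 were called lower and 16 higher. Castor1 and Atg4a were among the 5 genes with ACGTG that were called higher, and the match in Atg4a runs across the end of the printed sequence. The antioxidant response motif TGACNNNGC was in 3 genes (7.69% against 11.7%), and the FOXO motif TGTTTAC, the ATF4-CEBP motif TGATGNAA and the AP-1 motif TGANTCA were in 0 of 39, where 2.22%, 2.09% and 4.72% of windows of tested genes held them. The antioxidant response match in Ulk2 also lay inside that gene's span. So did the ACGTG match in Atg2b and the Stk11 match nearest the annotated start.

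Some of these values share reads or libraries with other signals. Counts were not whole numbers in at least 1 library for 13 of the 46 genes, among them Becn1, Tsc2, Flcn and Stk11, so their counts are estimates. The sources used here do not say whether counting used strand, and several genes overlap a neighbour. The largest overlap is that of Atg9a, which shares 41.8% of its exon length with Gm29253 on the same strand, which was not analysed here, and has counts that are not whole in 3 libraries. Akt1s1 shares 2.93% with Mir707, also on the same strand. The overlaps given next are with genes on the opposite strand. Becn1 shares 29.6% of its exon length with Cntd1, which stood at 1.22 CPM in uLN and 1.23 CPM in mLN. Atg4d shares 23.2% with Kri1, which was not called (52.3 and 48.6 CPM), and Tsc2 shares 10.9% with Pkd1, which fell by 0.22 on the log2 scale. Sqstm1 shares 20.5% with Mrnip, which rose and had mean levels of 3.8 CPM in uLN and 6.76 CPM in mLN. Stk11 shares 8.31% with Cbarp, which rose from 9.70 ± 0.331 to 26.6 ± 4.56 CPM (SD, n = 3), and the part of these neighbours in the values of the overlapping genes was not tested.

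Markers of mast cells and of other cells were read in the same libraries. The 10 mast cell markers summed to between 41200 and 43000 CPM in uLN and between 39500 and 42200 CPM in mLN, but single markers changed within these sums, with 3 called higher, 5 lower and 2 not called. Kit, which encodes the stem cell factor receptor, was lower, at 3139 ± 46.6 CPM in mLN against 7756 ± 191 CPM in uLN, and the chymase gene Cma1 rose from 4783 ± 206 to 9607 ± 729 CPM (SD, n = 3). The 8 macrophage markers summed to 135 to 181 CPM in uLN and 213 to 244 CPM in mLN, with 2 called higher (Cd68 and Adgre1), 5 lower and C1qa at 2 to 11 reads. Keratinocyte and epithelial markers ran from 8.04 to 17.3 CPM in uLN and from 16.2 to 158 CPM in mLN, and fibroblast markers from 3.73 to 13.1 and from 12.5 to 112 CPM, with the highest sums in mLN replicate 1. The 3 B cell markers summed to less than 1 CPM in each library, the 4 T cell markers found in the table to 4.37 to 5.22 CPM in uLN and 2.14 to 3.33 CPM in mLN, and the 4 neutrophil markers to 6.08 to 7.45 and 5.70 to 7.28 CPM. Of the tested keratinocyte and epithelial markers 3 were called higher and 1 was not called. All 3 tested fibroblast markers were called higher. The keratinocyte, fibroblast, B cell and neutrophil sums overlapped between the groups, while the macrophage and T cell sums did not. The part of transcripts from other cells, and of the changes among mast cell markers, in the results for the 46 genes was not tested.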

How the data were processed

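RNA of mast cells from 3 uLN and 3 mLN libraries was sequenced on DNBSEQ, per the labels' protocols. Cutadapt, FastQC and TopHat were used with GRCm38, per the submitters' processing notes. No source used here names the counting tool. Values are as the authors deposited them: expected counts per gene, not scaled. Of these 32.2% to 32.8% of values were not whole, and they were rounded. The table had 17891 rows, of which 1 named no gene. The test was edgeR 4.0.16 in R 4.3.3 (glmQLFit and glmQLFTest, TMM, default filter, Benjamini-Hochberg over 12706 genes, threshold 0.05). The SE is the log2 change over the square root of F. On simulated data for this comparison (12706 genes, 50 changed per size) the test recovered 42.0% of the genes changed 1.25-fold and 80.0% of those changed 1.5-fold. Recovery rose to 90.0% (2-fold) and 98.0% (4-fold). Of 171 calls 16 were false, a larger share than the threshold of 0.05. Few genes were changed in the simulation, where 67.4% were called in the data, so these rates need not hold for the reported fit. Libraries held 17643916 to 17799420 reads, and 1 read is 0.0548 to 0.0574 CPM.

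The genes and lists were chosen with earlier results of these data known. All 46 genes are accounted for. Values of every library are given for those called with a fold of at least 1.5 and for the most abundant of each role. Of the other pathway genes, the 6 largest rises and 6 largest falls among those called with a mean of at least 5 CPM are named. Outside this rule, Prkab1, Rragc, Rraga and the tested transcription factors of autophagy and lysosome genes are also named. Exon lengths are unions of exons in GENCODE M21 (basic), and positions and promoters come from RefSeq. Alternatives were other scalings, DESeq2 1.42.0, limma-voom (limma 3.58.1), no filter, unrounded counts, glmTreat against 1.2-fold, a replicate block and leaving out each library. Replicate numbers are shared by the groups, but same-numbered libraries did not deviate together (correlations of 0.0363, -0.133 and 0.00914).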

Additional observations from a re-analysis of the deposited data

How the results depend on the processing

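Of the 37 genes called, 31 stayed called in the same direction under every alternative other than the glmTreat test, and no called gene changed sign under any of them. The exceptions were Rb1cc1, Uvrag, Atg5, Gabarapl1, Optn and Prkaa1, all changed by less than 1.2-fold. Against a fold of 1.2 (glmTreat), 9 of the 46 genes were higher and 13 lower, where 23.1% and 23.0% of all genes were, and 15 of the other pathway genes were higher and 15 lower. This test asks for a larger change by construction. With the replicate block 16 of the 46 genes were higher and 19 lower, and Atg5 and Optn lost their calls (adjusted p = 0.0676 and 0.0533 in edgeR), but the libraries share only a number. Leaving out each library in turn gave 14 to 17 higher and 17 to 24 lower among the 46 genes. DESeq2 gave 16 and 18, limma-voom 16 and 22, and library totals alone 18 and 18. Scaling moved the median log2 change of all genes by at most 0.03. Depth limits Atg10 most, at 45.3 to 74.1 reads per library.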
